A study of Homo sapiens with 12 samples.

Results

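The guanylate-binding proteins GBP1, GBP2, GBP3, GBP4 and GBP5 are large GTPases of human cells, and their transcripts were followed here by gene symbol through the count tables. The 5 genes were all found, among 44700 genes in those tables, and all 5 passed the filter on low counts that left 15810 genes for testing. The RNA came from MALME-3M and SK-MEL-5, human melanoma cell lines that were each derived from a metastasis and that the labels give as WT in genotype. The 4 groups held 3 libraries each. They were SK-MEL-5 given interferon-γ (IFN-γ) at 150 ng/mL, SK-MEL-5 left untreated, MALME-3M given IFN-γ at 200 ng/mL and MALME-3M left untreated. Exposure began when the cells were plated and lasted 24 h. Each group came from a triplicate of wells of 1 line, so p-values measure the spread between these samples, which may be technical. The lines were grown in different media and received different doses, so line, dose and medium cannot be told apart in any comparison between them.

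IFN-γ acts through its receptor and the kinases JAK1 and JAK2, and genes that respond to it often carry GAS elements or ISRE elements, of which the ISRE is bound by the induced factor IRF1. GBP genes are among the most strongly induced targets of this route in many cell types. The proteins bind and hydrolyse GTP, assemble into polymers and coat intracellular bacteria or the vacuoles of pathogens. GBP1 carries a farnesyl group and GBP2 and GBP5 a geranylgeranyl group at a C-terminal CaaX motif, by which they anchor to membranes, while GBP3 and GBP4 have no such motif. On bacterial lipopolysaccharide, GBP1 starts a coat that recruits GBP2, GBP3 and GBP4 and activates caspase-4.

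The 5 genes lie on the minus strand of chromosome 1 (GRCh38, positions of GENCODE 29), within 266.1 kb. GBP3 spans positions 89006666 to 89022894, GBP1 89052319 to 89065360, GBP2 89106132 to 89150456, GBP4 89181148 to 89198932 and GBP5 89258950 to 89272804. All are annotated as protein-coding. The RefSeq promoter table (GRCh38.p14, 250 bases before to 50 bases after a gene's start) matched 3 of the 5, namely GBP1, GBP3 and GBP4. The windows were searched on both strands for the ISRE core, GAAA followed after any 2 bases by a second GAAA, and for the GAS motif TTCNNNGAA. Each of the 3 held 1 ISRE core, read on the opposite strand, and GBP3 also held a GAS motif. Of all 35116 promoter windows in the table, 3.57% held the ISRE core and 7.66% the GAS motif. The stretches around these matches are shown because factors of this pathway are known to bind such motifs. They are given 5′ to 3′ on the gene's strand, with the ISRE core in capitals in each and the GAS motif in capitals in the last only. They cover chr1:89065316-89065345, chr1:89022845-89022874, chr1:89198927-89198956 and, for the GAS motif of GBP3, chr1:89022855-89022884.
GBP1: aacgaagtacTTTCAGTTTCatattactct
GBP3: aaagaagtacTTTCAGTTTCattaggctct
GBP4: gtgcatgtccTTTCAATTTCggttctcaca
GBP3, GAS and ISRE: cacTTCCTTGAAagaagtacTTTCAGTTTC
Aligned on the core, the GBP1 and GBP3 stretches were identical at 25 of 30 positions, whereas GBP4 matched either of them at 16. The positions of the cores depend on the annotated start. In GBP3 the core began 2 bases after the RefSeq start, but lay 30 to 39 bases after the GENCODE start, which is 28 bases further upstream. In GBP4 it began 4 bases before the RefSeq start, and at position -14 to -5 relative to the GENCODE start, which lies downstream of RefSeq's. In GBP1 it began 127 bases before the RefSeq start, but GENCODE places the start 152 bases further upstream, which puts the core 25 to 34 bases after it. A match of letters is a description and not evidence of binding in these cells.

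The libraries held 15514412 to 22921184 reads counted in genes. A group with 0 reads was set to a floor of 3 reads over its libraries, which is 0.0498 to 0.0572 counts per 1000000 (CPM, on library sizes scaled by TMM). The 8 melanocytic markers were all present and summed to 5740 to 5890 CPM with and 6080 to 6430 CPM without IFN-γ in SK-MEL-5, and to 5840 to 6210 CPM with and 6280 to 6310 CPM without it in MALME-3M. The 5 markers of T and NK cells summed to at most 0.969 CPM in any library, and CD3D and CD2 had 0 counts in all. The 5 myeloid markers summed to 0.538 to 1.24 CPM with and 0.304 to 0.757 CPM without IFN-γ in SK-MEL-5, and to 1.31 to 1.8 CPM with and 0.521 to 0.962 CPM without it in MALME-3M. Endothelial markers summed to 12.8 to 13.9 CPM with and 15.4 to 18.7 CPM without IFN-γ in SK-MEL-5, and to 24.1 to 30.1 CPM with and 39.7 to 42.7 CPM without it in MALME-3M, most of it KDR. Fibroblast markers summed to 130 to 135 CPM with and 162 to 189 CPM without IFN-γ in SK-MEL-5, most of it LUM, and to 14.4 to 16.2 CPM with and 18.0 to 19.2 CPM without it in MALME-3M. The melanocytic, endothelial and fibroblast sums were thus lower with IFN-γ and the myeloid sum higher in MALME-3M, and their part in the GBP results was not tested. Single markers went both ways. Of the 8 melanocytic markers in MALME-3M, 2 were called higher and 2 lower (edgeR), against 9.51% and 8.77% of all genes. There DCT went from 974 CPM without to 705 CPM with IFN-γ, S100B from 646 to 737 CPM and COL1A2, a fibroblast marker, from 1.52 to 3.74 CPM. In bulk RNA, a change in the number of expressing cells and in RNA per cell cannot be told apart.

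All 5 GBP genes rose with IFN-γ in both lines. GBP1 and GBP4 rose 53.9-fold or more in each, and GBP5, which had 0 to 2 reads per untreated library, reached 20 to 37. GBP2 rose more in MALME-3M than in SK-MEL-5, and GBP3 rose more in SK-MEL-5 as a fold, whereas MALME-3M carried the higher level of it with and without treatment. The calls are those of edgeR's quasi-likelihood test at a Benjamini-Hochberg adjusted p below 0.05 over the 15810 genes. In SK-MEL-5 5 of 5 GBP genes were called higher, against 5.98% of all genes (7.05% were called lower). In MALME-3M it was again 5 of 5, against 9.51% of all genes (8.77% were called lower). The CPM of treated and untreated libraries did not overlap for any of the 5 in either line. Over all genes, treated libraries lay wholly above untreated ones for 11.7% in SK-MEL-5 and 16.6% in MALME-3M.

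**Figure D1:**
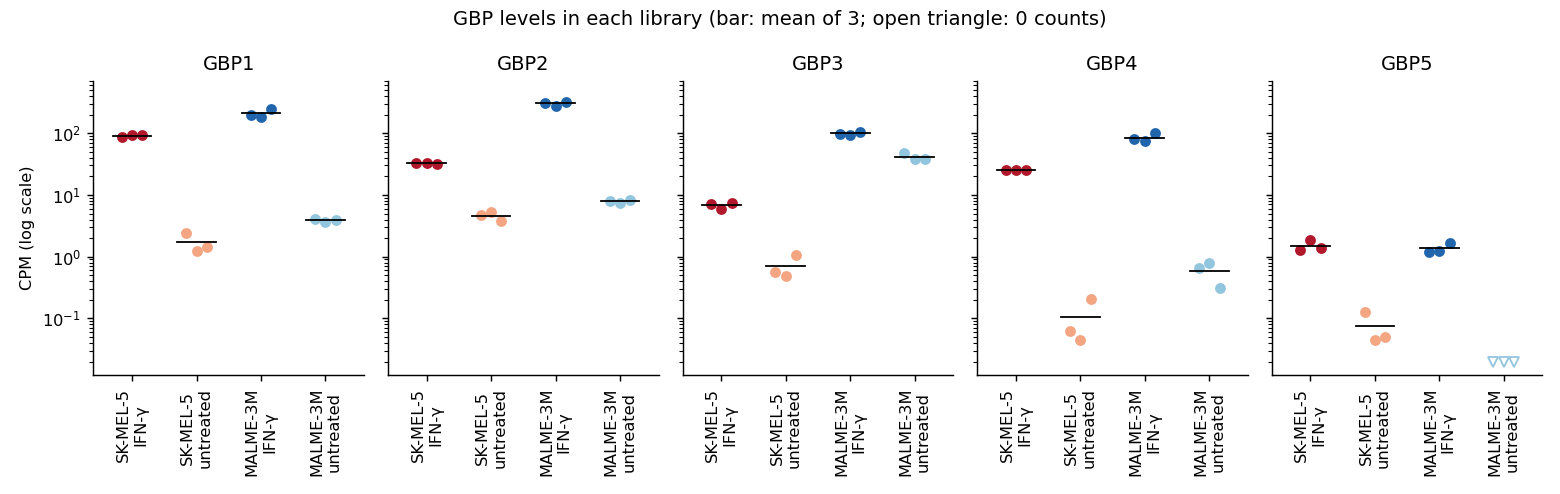
CPM of each GBP gene in the 12 libraries on a log axis, with treated libraries to the left of untreated ones for each line; points are single libraries, bars are group means and open triangles mark libraries with 0 reads. In every panel the treated points lie above the untreated points of the same line, and GBP3 in untreated MALME-3M, at 38.2 to 48.4 CPM, lies above GBP3 in treated SK-MEL-5, at 5.92 to 7.42 CPM.

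GBP1, the farnesylated member that forms the first layer of the coat, had 1754, 1761 and 1436 reads in the treated SK-MEL-5 libraries, against 38, 28 and 28 in the untreated ones. As CPM these were 85.8, 94.8 and 93.5 with IFN-γ and 2.42, 1.25 and 1.42 without. The treated libraries agree closely and lie far above the untreated ones, a 55.7-fold difference (log2 fold change 5.80 ± 0.15, SE, adjusted p = 6.7e-16, edgeR). In MALME-3M, GBP1 stood at 199, 183 and 250.0 CPM with IFN-γ and at 4.15, 3.62 and 3.96 CPM without. That is a 53.9-fold difference (log2 5.75 ± 0.14, adjusted p = 1.7e-16, edgeR), and the treated group is the more spread of these 2, with replicate 3 the highest. The fold in the lines differed by -0.05 on the log2 scale (MALME-3M minus SK-MEL-5, 95% interval -0.56 to 0.47, adjusted p = 0.96, edgeR). A difference of up to the ends of that interval cannot be told from 0 here, so the lines are not shown to respond alike. The level itself was higher in MALME-3M in both states, by 2.31-fold with IFN-γ (adjusted p = 2.5e-09) and by 2.39-fold without (adjusted p = 3e-05, edgeR).

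GBP2, a geranylgeranylated member that joins the coat, rose by different amounts in the lines. It had 33.0, 32.6 and 32.2 CPM in treated SK-MEL-5 and 4.71, 5.21 and 3.8 CPM in untreated SK-MEL-5. In MALME-3M it had 304, 281 and 324 CPM with IFN-γ and 7.94, 7.35 and 8.28 CPM without. The treated MALME-3M libraries lie above those of all other groups, while the untreated lines lie close together. The rise was 38.5-fold in MALME-3M (log2 5.27 ± 0.086, adjusted p = 5.4e-19) and 7.1-fold in SK-MEL-5 (log2 2.83 ± 0.091, adjusted p = 1.4e-14, edgeR). The difference between these changes was itself called, at 2.44 ± 0.13 on the log2 scale (95% interval 2.14 to 2.73, adjusted p = 7.2e-10, edgeR). Such a difference was called for 2 of the 5 GBP genes, GBP2 and GBP3, against 4.46% of all genes tested (2.67% with a larger change in MALME-3M and 1.79% with a smaller one). That split depends on the scaling, with 422 larger and 283 smaller under TMM and 340 and 351 under upper-quartile scaling. With treatment GBP2 was 9.29-fold higher in MALME-3M than in SK-MEL-5 (adjusted p = 8.4e-18), and without treatment 1.71-fold (adjusted p = 1.7e-06, edgeR).

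GBP5, the other geranylgeranylated member, known in human cells for restraining the protease furin, had the lowest mean of the 5 in every group, overlapping GBP4 in untreated SK-MEL-5. It had 26, 34 and 21 reads in treated SK-MEL-5 and 2, 1 and 1 in untreated SK-MEL-5, which as CPM is 1.49 ± 0.30 with IFN-γ and 0.0741 ± 0.046 without (SD, n = 3 each). In MALME-3M it had 20, 26 and 37 reads with IFN-γ, or 1.36 ± 0.26 CPM (SD, n = 3), and 0 in each untreated library. The treated libraries of both lines thus fall in 1 range, 1.2 to 1.83 CPM, and the untreated ones lie at or close to 0. The ratio of counts in SK-MEL-5 was 21.6 (95% Clopper-Pearson interval 8.11 to 81.0, counting error only; log2 fold change 4.30 ± 0.53, adjusted p = 2.3e-05, edgeR). Against the floor of 3 counts over the untreated group, GBP5 was at least 24.1-fold higher in treated MALME-3M (adjusted p = 4.8e-06, edgeR), while the 95% Clopper-Pearson lower limit of that ratio was 19.1 from counting error alone. Between treated MALME-3M and treated SK-MEL-5 the log2 difference was -0.12 ± 0.34 (95% interval -0.91 to 0.66, adjusted p = 0.75, edgeR), and the libraries overlapped. The difference of the changes did not pass the test (adjusted p = 0.24, edgeR) and its size cannot be read with 0 counts in untreated MALME-3M.

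GBP3 has no CaaX motif and enters the coat with other members. It stood at 7.09, 5.92 and 7.42 CPM in treated SK-MEL-5 and at 0.572, 0.49 and 1.06 CPM in untreated SK-MEL-5. In MALME-3M it stood at 98.0, 94.6 and 106 CPM with IFN-γ and at 48.4, 38.2 and 38.8 CPM without. Untreated MALME-3M therefore held more GBP3 transcript than treated SK-MEL-5, with no overlap between libraries. Without treatment the level was 58.4-fold higher in MALME-3M than in SK-MEL-5 (log2 5.87 ± 0.17, adjusted p = 2.8e-16), and with treatment 14.6-fold (log2 3.87 ± 0.12, adjusted p = 8.8e-16, edgeR). The rise with IFN-γ was 2.38-fold in MALME-3M (log2 1.25 ± 0.10, adjusted p = 2.8e-08) and 9.51-fold in SK-MEL-5 (log2 3.25 ± 0.20, adjusted p = 6.3e-10, edgeR). The change in MALME-3M minus that in SK-MEL-5 was -2.0 ± 0.24 on the log2 scale (95% interval -2.56 to -1.44, adjusted p = 3.3e-05, edgeR). On the CPM scale the order was the other way, with a gain of 57.8 CPM in MALME-3M and 6.1 CPM in SK-MEL-5.

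GBP4, also without a CaaX motif, had 525, 478 and 390 reads in treated SK-MEL-5 and 1, 1 and 4 in untreated SK-MEL-5. In MALME-3M it had 1329, 1592 and 2220 reads with IFN-γ and 11, 13 and 6 without. The gene was close to absent without treatment in both lines and among the genes with the highest folds after it, at rank 8 by log2 fold change of all genes tested in SK-MEL-5 and 22 in MALME-3M. As CPM it reached 25.6 ± 0.18 in treated SK-MEL-5 against 0.104 ± 0.086 in untreated SK-MEL-5 (SD, n = 3 each; log2 fold change 7.86 ± 0.25, adjusted p = 1.7e-14, edgeR). The ratio of counts there was 247 with a 95% Clopper-Pearson interval of 113 to 675, so the SE of the fit understates the error of the fold. In MALME-3M it reached 84.7 ± 13 CPM against 0.586 ± 0.24 CPM (SD, n = 3 each; log2 7.19 ± 0.19, adjusted p = 5.2e-16, edgeR), and the ratio of counts was 149 with an interval of 104 to 221. The difference of the changes was -0.67 ± 0.55 (95% interval -1.93 to 0.59, adjusted p = 0.61, edgeR) and was not called. GBP4 was 3.31-fold higher in MALME-3M than in SK-MEL-5 with treatment (adjusted p = 1e-10) and 5.26-fold without (adjusted p = 0.00047, edgeR). The 4 reads of untreated SK-MEL-5 replicate 3 weigh on these values. Without that library the log2 fold change in SK-MEL-5 was 8.76 in place of 7.86, the difference of the changes -1.57 (adjusted p = 0.33), and the log2 difference between the untreated lines 3.29 in place of 2.39 (adjusted p = 0.00024, edgeR).

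**Figure D2:**
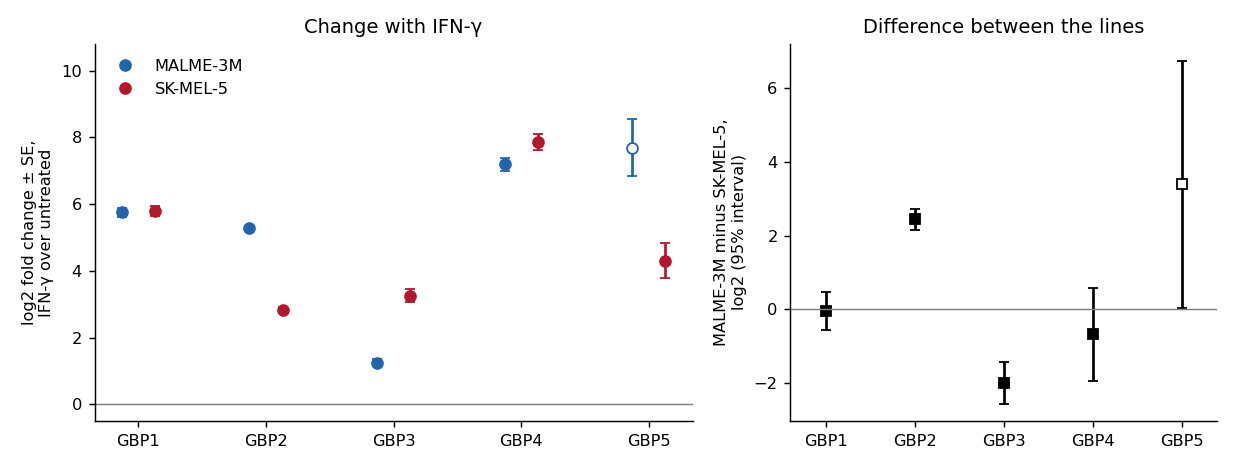
Left, log2 fold change of each GBP gene, IFN-γ over untreated, in MALME-3M and SK-MEL-5, with SE bars; right, the change in MALME-3M minus that in SK-MEL-5 with 95% intervals. GBP2 lies above 0 on the right and GBP3 below it, at 2.44 and -2.0, the intervals of GBP1 and GBP4 include 0, and open symbols mark GBP5, whose fitted values against 0 counts in untreated MALME-3M are no measure of size.

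Between the untreated lines all 5 genes were called, 4 higher and GBP5 lower in MALME-3M. Such differences were common, since 71.7% of all genes were called between the untreated lines (34.5% higher and 37.2% lower in MALME-3M), so the count says little about the GBP genes. Their sizes were far apart, however, with 58.4-fold for GBP3 and 1.71-fold for GBP2. The GBP5 call rested on 0 reads in MALME-3M against 4 in SK-MEL-5 (adjusted p = 0.036, edgeR), and it did not hold with DESeq2 (adjusted p = 0.079). Nor did it hold by edgeR without untreated SK-MEL-5 replicate 1 (adjusted p = 0.098) or without untreated MALME-3M replicate 1, 2 or 3 (adjusted p = 0.07, 0.071 and 0.08). Among treated libraries, 4 of the 5 were called, all higher in MALME-3M, with GBP5 the exception. There 71.8% of all genes were called, 35.4% being higher in MALME-3M.

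Levels of different genes were compared as CPM per kb of exon, the union over GENCODE transcripts. In treated SK-MEL-5 GBP1 led with 18.3 ± 0.98 CPM per kb, followed by GBP2 with 5.2 ± 0.062, GBP4 with 4.18 ± 0.029, GBP3 with 1.59 ± 0.18 and GBP5 with 0.183 ± 0.037 (SD, n = 3), and no neighbours in this order overlapped. In untreated SK-MEL-5 the order on the same scale was GBP2 with 0.729 ± 0.11, GBP1 with 0.339 ± 0.13, GBP3 with 0.165 ± 0.072, GBP4 with 0.0169 ± 0.014 and GBP5 with 0.00911 ± 0.0057, the last 2 overlapping. In treated MALME-3M GBP2 with 48.3 ± 3.4 CPM per kb and GBP1 with 42.2 ± 7.0 overlapped, and GBP3 with 23.2 ± 1.4, GBP4 with 13.8 ± 2.2 and GBP5 with 0.167 ± 0.032 followed without overlap. Untreated MALME-3M had GBP3 in front, with 9.73 ± 1.3 CPM per kb, then GBP2 with 1.25 ± 0.074, GBP1 with 0.783 ± 0.054 and GBP4 with 0.0956 ± 0.04, while GBP5 had no reads. GBP3 and GBP4 changed places in treated SK-MEL-5 when TPM from the transcript tables was used instead (14.7 ± 1.7 and 9.38 ± 2.5), as did GBP3 and GBP1 in untreated SK-MEL-5 (2.04 ± 0.22 and 1.83 ± 1.1, overlapping). The exon union was 6276 bases for GBP2, whose coding transcript GBP2-201 has 2220, but 6127 bases for both GBP4 and GBP4-201. The scale per kb thus sets GBP2 low against GBP4. In treated MALME-3M, TPM gave GBP2 331 ± 31 and GBP1 224 ± 39 without overlap, and GBP4 23.6 ± 1.6. There transcript sums held 60.8% to 64.4% of the GBP2 gene counts but 22.4% to 35.6% of those of GBP4, so neither scale fixes their distance.

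Summed over the 5 genes, the family reached 158 ± 4.4 CPM in treated SK-MEL-5 and 7.16 ± 0.68 CPM in untreated SK-MEL-5, and 700 ± 75 CPM in treated MALME-3M and 54.2 ± 6.1 CPM in untreated MALME-3M (SD, n = 3 each). The make-up of the length-scaled sum shifted with treatment in different ways. These shares depend on the exon union used as length and were not computed from TPM. In treated SK-MEL-5 GBP1 held 62.1 ± 1.5% and GBP2 17.7%, whereas in untreated SK-MEL-5 GBP1 held 26.5 ± 7.3% and GBP2 58.0 ± 9.4%. In treated MALME-3M GBP2 held 38.0 ± 1.5%, GBP1 33.0 ± 1.9% and GBP3 18.2%, whereas in untreated MALME-3M GBP3 alone held 81.9 ± 1.5%. GBP5 never held as much as 1% on the group mean, with 0.62% in treated SK-MEL-5 and 0.13% in treated MALME-3M.

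**Figure D3:**
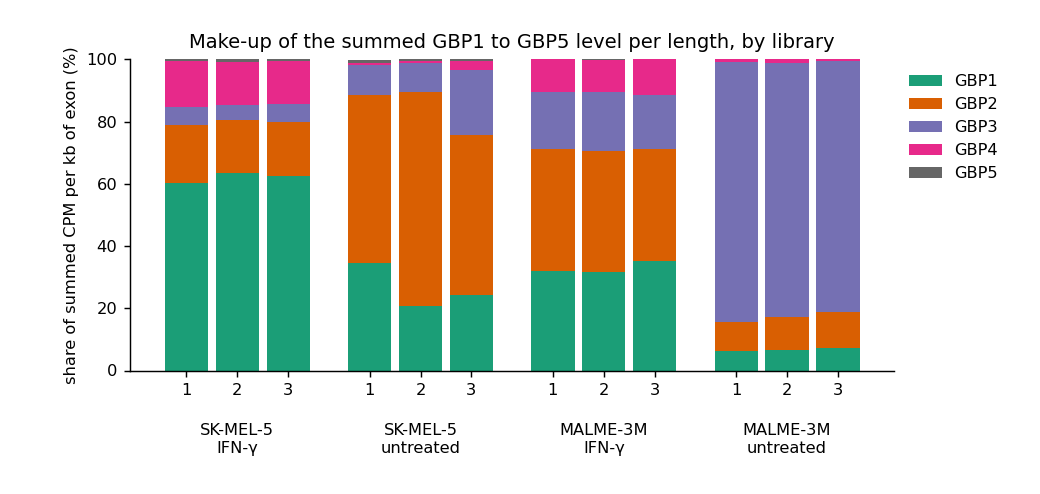
Share of each GBP gene in the summed CPM per kb of exon of the 5 genes, in percent; each stacked bar is 1 library, with treated libraries left of untreated ones for each line. GBP1 takes 62.1% on average in treated SK-MEL-5, and GBP3 takes 18.2% in treated MALME-3M against 81.9% in untreated MALME-3M.

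The members did not all vary together over the 12 libraries, which make up 4 groups of line and treatment. Pearson's r of log2 CPM was 0.987 for GBP1 with GBP4 and 0.932 for GBP1 with GBP2, but 0.587 for GBP1 with GBP3 and 0.19 for GBP3 with GBP5. Among all genes tested other than the 5, the 3 most like GBP1 were PSMB10, an immunoproteasome subunit, with r = 0.998, BTN3A3, a butyrophilin, with 0.997, and ICAM1, an adhesion molecule, with 0.996. Those most like GBP4 were SAMD9L (0.991), PARP9 (0.989) and MOV10 (0.989), and those most like GBP2 were NEXN (0.989), AKAP13 (0.987) and the class I gene HLA-C (0.985). GBP3 was most like AGAP3 (0.992), the exonuclease gene ISG20 (0.991) and TTC7B (0.99), and among those most like GBP5 were WARS (0.988), the tryptophanyl-tRNA synthetase gene, and BANCR (0.984). These values are descriptions over 12 libraries in 4 groups.

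In the transcript estimates, GBP3 differed between the lines in form as well as in amount. The deposited abundance tables give estimated counts per transcript, and the transcripts tied to GBP3 summed to 994.0 to 1364.6 in treated MALME-3M, 430.8 to 489.8 in untreated MALME-3M, 67.4 to 91.6 in SK-MEL-5 with IFN-γ and 4.9 to 11.0 in SK-MEL-5 without it. The coding transcript GBP3-202 held 31.8% to 34.5% of them in treated and 26.7% to 33.3% in untreated MALME-3M, but was listed at 0 in all 6 SK-MEL-5 libraries. GBP3-205, a shorter coding transcript, held 32.4% to 33.6% in treated and 30.6% to 34.5% in untreated MALME-3M, against 0% to 3.98% in treated SK-MEL-5. The reverse held for GBP3-207, annotated as subject to nonsense-mediated decay, listed at 0 in treated MALME-3M and at 24.6% to 39.1% in treated SK-MEL-5. Of the remaining forms, GBP3-208, also annotated as subject to nonsense-mediated decay, held 12% to 20.3% in treated MALME-3M against 0% to 7.67% in treated SK-MEL-5. GBP3-201, likewise annotated as subject to nonsense-mediated decay, held 3.38% to 13.3% in treated MALME-3M against 13.4% to 27.2% in treated SK-MEL-5. GBP3-204, a coding transcript, held 5.99% to 11.5% in treated MALME-3M against 15.4% to 32.5% in treated SK-MEL-5. In MALME-3M the ranges of GBP3-202 and GBP3-205 with IFN-γ overlapped those without it. Shares in untreated SK-MEL-5 are not given because its total was too low. These are estimates from few reads in SK-MEL-5, without a test, and assembled transcripts that the tables do not tie to a gene may hold further reads.

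**Figure D4:**
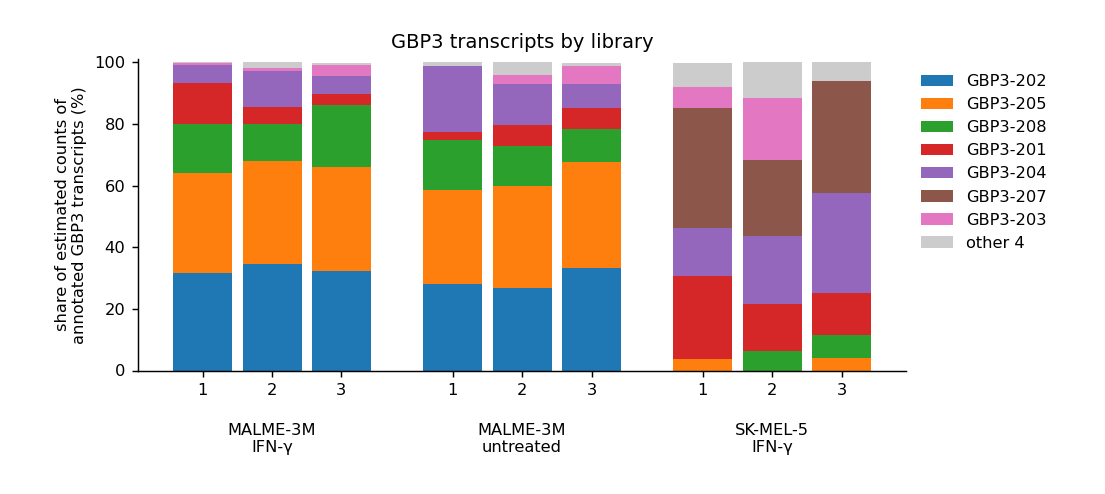
Share of the estimated counts of GBP3, in percent, held by its annotated transcripts, of which GBP3-206, GBP3-209, GBP3-210 and GBP3-211 are pooled. Each stacked bar is 1 library of treated MALME-3M, untreated MALME-3M or treated SK-MEL-5. Untreated SK-MEL-5 is left out for its low total. GBP3-202 and GBP3-205 each take 26.7% to 34.5% of every MALME-3M bar, whereas treated SK-MEL-5 has none of GBP3-202, 0% to 3.98% of GBP3-205 and 24.6% to 39.1% of GBP3-207, which is listed at 0 in treated MALME-3M.

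For GBP1 and GBP4 a single form led in the treated libraries. GBP1-201, the coding transcript of 11 exons, held 72.5% to 81.4% of the estimated counts in treated MALME-3M and 72.1% to 77.8% in treated SK-MEL-5. GBP4-201 held 91.4% to 93.2% in treated MALME-3M and 87.4% to 91.7% in treated SK-MEL-5. For GBP2, the coding GBP2-201 held 61.9% to 71.4% in treated SK-MEL-5 against 39.1% to 56.8% in untreated SK-MEL-5, and the noncoding GBP2-204 held 22.0% to 26.7% against 43.2% to 52.7%. In MALME-3M the share of GBP2-201 was 73.3% to 75.9% with IFN-γ and 71.0% to 74.4% without. The untreated SK-MEL-5 shares rest on totals of 44 to 70.4 estimated counts, and the ranges of GBP2-201 and GBP2-204 overlap there, so neither form led. GBP5 had too few estimated counts for shares. In treated MALME-3M the transcript sums were 51.8% to 58.3% of the gene counts for GBP1 and 22.4% to 35.6% for GBP4. Those of GBP5 were 13.8% to 34.0% in treated MALME-3M and 0% to 17.1% in treated SK-MEL-5, so its rise rests on the gene counts.

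The members resemble each other in sequence, which bears on how reads were assigned. Of all 31-base words of GBP1 transcripts, 10.6% also occur in another GBP gene, mostly GBP3, and the shares were 11.8% for GBP2, 10.0% for GBP3, 2.28% for GBP4 and 0.145% for GBP5. At 100 bases, the length of 1 read, only GBP2 shared words, 8.42% of them and all with GBP7. GBP7 lies on the same strand and overlaps GBP2 over 18706 bases, 621 of them exonic. It had 53, 93 and 109 reads in treated MALME-3M and 0 in untreated MALME-3M, at least 73.9-fold higher against the same floor (95% Clopper-Pearson lower limit 59.7, adjusted p = 1.1e-07, edgeR). Its treated reads amount to 1.05% to 1.55% of the GBP2 reads. In SK-MEL-5 it had 0, 1 and 1 reads with IFN-γ and 0, 1 and 0 without (adjusted p = 0.77, edgeR). Reads of GBP7 and GBP2 cannot be told apart in the shared stretch, and only 2.75% to 9.43% of the GBP7 gene counts came back in its transcript sums in treated MALME-3M, so the GBP7 values are uncertain. GBP6, on the other strand beyond GBP5, had at most 4 reads in any library. Antisense genes overlap exons of GBP4 and GBP5 over 138 and 324 bases, and since the strand setting of the counting is not given in the sources used here, their reads cannot be told apart from those of the 2 genes.

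Beyond the cluster 4 neighbouring genes could be tested, GTF2B and KYAT3 on the GBP3 side and LRRC8B and LRRC8C on the GBP5 side. They had log2 fold changes between -0.72 and 0.82 in the lines and were not called (adjusted p = 0.12 to 0.91, edgeR), which is near the share of all genes not called. Both ends of that range are LRRC8C, at -0.72 ± 1.3 in SK-MEL-5 and 0.82 ± 0.44 in MALME-3M (SE), so its change is poorly measured. RBMXL1, on the GBP3 side, had 0 reads in every library and was not tested. It lies almost wholly within KYAT3 on the same strand, and how reads of the shared stretch were assigned was not examined.

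**Figure D5:**
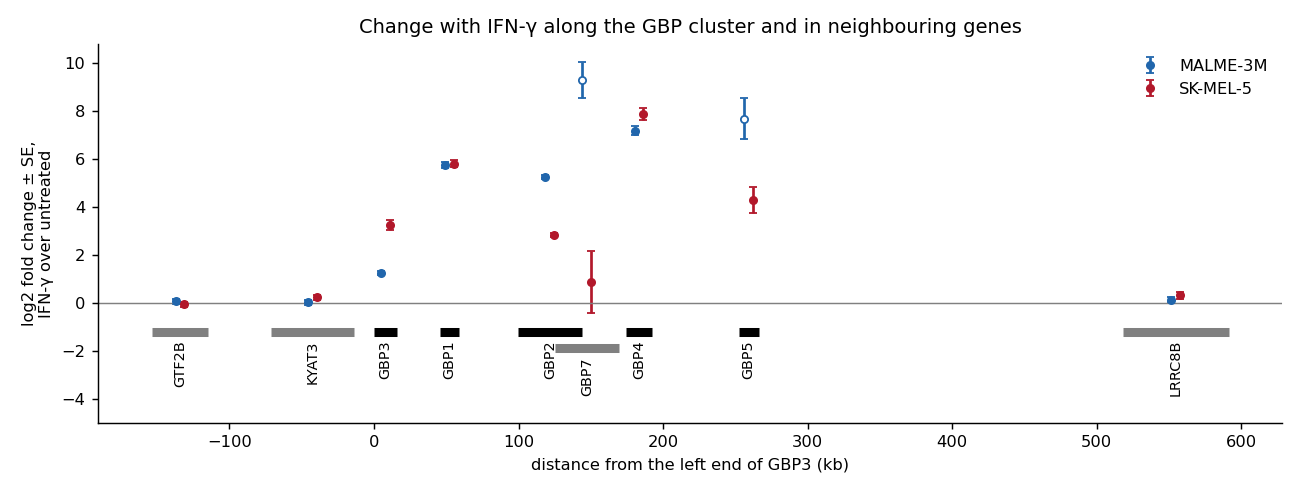
Log2 fold change with IFN-γ, with SE bars, of the GBP genes and neighbouring genes, against distance in kb from the left end of GBP3; black bars mark the 5 GBP genes, grey bars their neighbours. GBP1 to GBP5 lie between 1.25 and 7.86 where the untreated group had reads, and GTF2B, KYAT3 and LRRC8B lie near 0. LRRC8C, also tested, is not drawn. Open points (GBP5 and GBP7 in MALME-3M) are fitted against 0 counts and give no size.

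Most of the listed genes upstream of GBP transcription rose with them. Of 12 such genes, all tested, 8 were called higher in each line, against 5.98% of all genes in SK-MEL-5 and 9.51% in MALME-3M, and 1 was called lower in SK-MEL-5, against 7.05%. They had a median log2 fold change of 1.01 in SK-MEL-5 and 1.3 in MALME-3M, against -0.03 and 0 over all genes. IRF1, the factor of the ISRE, rose to 253 CPM in treated MALME-3M, against 2.94 CPM in untreated MALME-3M, and to 204 CPM in treated SK-MEL-5, against 5.05 CPM in untreated SK-MEL-5. Its change was larger in MALME-3M by 1.08 on the log2 scale (adjusted p = 0.00054, edgeR). It was the 1 gene of the 12 whose change differed between the lines at the threshold, against 4.46% of all genes, so that count is near the background. IRF8, a related factor, was called higher in both lines. It had 1292 reads in treated and 6 in untreated SK-MEL-5, a ratio of 229 (95% Clopper-Pearson interval 105 to 626), and 55 in treated and 1 in untreated MALME-3M, a ratio of 47.8 (interval 8.23 to 1920). IRF9, the DNA-binding subunit of the ISGF3 complex, rose by 3.69 on the log2 scale in MALME-3M and 2.92 in SK-MEL-5, and SOCS1, the feedback inhibitor of JAK kinases, by 3.38 in MALME-3M and 1.44 in SK-MEL-5. These rest on few reads. With and without IFN-γ, IRF9 had 123 and 8 in MALME-3M and 103 and 14 in SK-MEL-5. SOCS1 had 77 and 6 in MALME-3M and 127 and 51 in SK-MEL-5. Neither difference between the lines was called (adjusted p = 0.67 for IRF9 and 0.18 for SOCS1, edgeR). The receptor gene IFNGR2 fell by 0.28 on the log2 scale in SK-MEL-5 (adjusted p = 0.02, edgeR).

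Of the enzymes that attach or process the lipid of CaaX proteins, 5 of 6 listed were tested. By edgeR 0 were called in SK-MEL-5 and 0 in MALME-3M, 0 also at an unadjusted p below 0.05 and 0 by DESeq2 (median log2 fold change 0.05 in SK-MEL-5 and -0.03 in MALME-3M). Of all genes 5.98% were called higher and 7.05% lower in SK-MEL-5, and 9.51% higher and 8.77% lower in MALME-3M, so a count of 0 of 5 is near the background and is no result about these enzymes. FNTA and FNTB encode farnesyltransferase subunits and PGGT1B a subunit of the enzyme that attaches geranylgeranyl groups. FNTA had 58.5 CPM in treated and 56.6 CPM in untreated SK-MEL-5, and 56.5 CPM in treated and 54.1 CPM in untreated MALME-3M.

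Partners of the GBPs in pathogen defence and pyroptosis rose for the most part. Of 8 tested of 10 listed, 5 were called higher and 0 lower in SK-MEL-5, against 5.98% of all genes called higher. In MALME-3M 6 were called higher and 1 lower, against 9.51% and 8.77% of all genes. Their median log2 fold changes were 1.23 in SK-MEL-5 and 0.7 in MALME-3M. APOL3, which permeabilises bacterial membranes, rose by 3.65 on the log2 scale in MALME-3M and 6.10 in SK-MEL-5. AIM2, a sensor of cytosolic DNA, rose by 6.11 in MALME-3M and 3.12 in SK-MEL-5. The largest of these folds rest on few untreated reads. With and without IFN-γ, APOL3 had 662 and 45 reads in MALME-3M and 474 and 7 in SK-MEL-5. AIM2 had 1769 and 22 in MALME-3M and 1420 and 174 in SK-MEL-5. CASP1, an inflammatory caspase, rose by 0.43 in MALME-3M and 2.41 in SK-MEL-5. Its level was higher in MALME-3M, at 45.0 CPM with and 33.5 CPM without IFN-γ, against 15.8 and 2.98 CPM in SK-MEL-5. GSDMD, whose cleaved form makes pores in the plasma membrane, rose by 0.97 in MALME-3M and 1.10 in SK-MEL-5. The 1 gene called lower was NINJ1, which drives membrane rupture, at -0.40 in MALME-3M (adjusted p = 0.0014, edgeR). In SK-MEL-5 NINJ1 was at -0.23 (adjusted p = 0.068), and the difference between the lines was not called (adjusted p = 0.51, edgeR). The changes of 4 of these 8 genes differed between the lines, against 4.46% of all genes, with 1 larger in MALME-3M (AIM2, by 2.99, adjusted p = 6.5e-07, edgeR) and 3 smaller (APOL3, CASP1 and CASP4).

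Of a list of other interferon-inducible or related large GTPases, which also held the ubiquitin ligase RNF213, 7 of 10 were tested. In SK-MEL-5 1 was called higher, namely RNF213, and 1 lower, against 5.98% and 7.05% of all genes. In MALME-3M 3 were called higher, RNF213 among them, and 0 lower, against 9.51% and 8.77%. The median log2 fold changes were -0.03 in SK-MEL-5 and 0.03 in MALME-3M. RNF213, a giant ubiquitin ligase that coats bacteria, rose in both lines, by 0.89 on the log2 scale in MALME-3M and 1.10 in SK-MEL-5. MX1, an antiviral GTPase, rose by 2.27 in MALME-3M (adjusted p = 2.3e-10) and was at 0.43 in SK-MEL-5 (adjusted p = 0.14, edgeR), and this difference was called (1.85, adjusted p = 3.1e-05, edgeR). MX2 rose by 2.56 in MALME-3M (adjusted p = 2.3e-05, edgeR). In SK-MEL-5 it had 7 reads with IFN-γ and 0 without (adjusted p = 0.061, edgeR). ATL3, an atlastin of the endoplasmic reticulum, fell by 0.26 in SK-MEL-5 (adjusted p = 0.0052) and was at -0.14 in MALME-3M (adjusted p = 0.098, edgeR). Neither difference between the lines was called (adjusted p = 0.53 for each, edgeR). By DESeq2 3 of the 7 were called in SK-MEL-5 and 5 in MALME-3M, in either direction. Of 5 reported binding partners or targets of GBPs, 2 were called higher in each line and 0 lower, against 5.98% of all genes called higher in SK-MEL-5 and 9.51% in MALME-3M, with median log2 fold changes of 0.31 in SK-MEL-5 and 0.44 in MALME-3M. They were UBE2L6, the conjugating enzyme of ISG15, which rose by 2.76 in MALME-3M and 3.76 in SK-MEL-5, and FURIN, the protease restrained by GBP5, which rose by 0.44 in MALME-3M and 0.34 in SK-MEL-5.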

How the data were processed

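Total RNA of the 12 libraries was prepared with a Pico V3 kit and sequenced in pairs of 100 cycles, per the labels' protocols. The authors deposited HTSeq-style read counts per gene symbol, whole numbers without normalization, and kallisto-style tables of estimated counts and TPM per transcript, per the file headers. Tools listed, without versions, in the submitters' processing notes are HTSeq, kallisto, SAMtools, STAR and cutadapt, and the build is hg38. The sources used here give neither gene annotation nor strand setting. The 5 summary lines were left out; ambiguous reads were 4.19% to 4.54% of the gene counts, alignments that were not unique 7.47 to 13.7 times them and those without a feature 0.533 to 0.850 times.

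Gene counts were fitted in R 4.3.3 with edgeR 4.0.16 (filterByExpr, minimum count 10, TMM, 1 mean per group over all 12 libraries, 8 residual degrees of freedom), and p-values were adjusted by Benjamini-Hochberg over 15810 genes. SE is the log2 fold change over the square root of F and is too small where a group has few counts. The script was tested on simulated data. The totals behind each library, 15514412 to 22921184 counts, set the precision; intervals and floors cover counting error only, since PCR copies are not told apart. Exon lengths, transcripts and shared words are from GENCODE 29. Of 361686 transcripts, 160246 were tied to 29025 genes and held 49.9% to 55.2% of the estimated counts, which were rounded for tests. No pair of replicate libraries was alike within sampling noise (chi-square 6.35 to 19.3 per gene). The labels number no replicates, so none were paired.

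The members and lists were chosen with earlier results of these data known. Named are the 5 members, the 3 genes most alike to each, and from each list up to 4 called genes with the largest absolute change in either line, plus counts of 5 or fewer. GBP1P1 is not analysed here, and 2 genes that this rule or the lists hold are not reported here. Alternatives were DESeq2 1.42.0, other scalings (RLE, upper quartile), no filter, only the groups compared, transcript sums and leaving out each library.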

Additional observations from a re-analysis of the deposited data

Results flagged for a closer look

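The rise of GBP2 with IFN-γ differed between the lines by 2.44 on the log2 scale (MALME-3M minus SK-MEL-5, adjusted p = 7.2e-10, edgeR's interaction contrast), being larger in MALME-3M. The rise of GBP3 differed by -2.0 on the same scale (adjusted p = 3.3e-05, edgeR), being smaller in MALME-3M. Line, dose and medium cannot be told apart in either difference.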

How the results depend on the processing

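Of 437 alternative values for single members, 423 kept direction and side of the threshold, among them all 178 for IFN-γ against untreated in either line, so the 5 calls per line held under every alternative run, except that GBP5 could not be tested from transcript sums. Leaving out 1 library gave a GBP1 difference between the lines of -0.34 to 0.15 and a GBP5 difference between the treated lines of -0.30 to 0.05, neither called; the sign turned for GBP1 without untreated SK-MEL-5 replicate 2 or 3 (0.15, 0.05) or treated MALME-3M replicate 2 (0.04), and for GBP5 without treated SK-MEL-5 replicate 2 (0.05). From transcript sums the difference between the lines was 0.44 for GBP1 (adjusted p = 0.75) and 0.93 for GBP4 (adjusted p = 0.77). Between the untreated lines 3 members were called with only the groups compared, where GBP4 and GBP5 were not tested, 2 from transcript sums and 4 to 5 when 1 library was left out, against 5. There GBP5 was at -3.51 without a filter (adjusted p = 0.075), at -2.71 with DESeq2 (adjusted p = 0.079) and at -3.76 to -3.04 with 1 library left out (adjusted p = 0.036 to 0.098), while transcript sums gave 0.81 for GBP1 (adjusted p = 0.074) and 0.68 for GBP4 (adjusted p = 0.49). With TPM, 3 of 5 members kept their rank in treated and 3 in untreated SK-MEL-5. Except where stated, the cause was not tested.

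Over all genes, transcript sums gave fewer calls, with 13497 genes tested: 396 higher and 176 lower in SK-MEL-5 against 946 and 1114, 527 and 415 in MALME-3M against 1504 and 1386, 68 and 69 for the difference of changes against 422 and 283. Between the treated lines they gave 3653 and 3758 against 5597 and 5749, and between the untreated lines 3743 lower against 5877. Genes lower in SK-MEL-5 numbered 655 without untreated replicate 2 and 665 without treated replicate 3. For the difference of changes DESeq2 gave 426 lower, and leaving out treated MALME-3M replicate 1 or 3 gave 275 or 240 higher. DESeq2 gave GBP5 no adjusted p for the difference of changes. No paired analysis was possible because the labels give no replicate numbers. Genes higher and lower in MALME-3M numbered 1504 and 1386 under TMM, 1331 and 1701 under upper-quartile scaling, and 1383 and 1612 with RLE size factors. Low counts limit GBP5 everywhere and GBP4 without treatment.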
